A study of Caenorhabditis elegans with 2 samples.

Results

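The genes described are rpr-1, the gene for the RNA subunit of RNase P, and mrpr-1, the gene for that of RNase MRP. They were chosen by name, with the peak values of these data known, and are 2 of the 46926 genes annotated in Caenorhabditis elegans. The data are peak lists from a chromatin immunoprecipitation and sequencing experiment on HLH-26, a transcription factor of the basic helix-loop-helix (bHLH) family, in 2 biological replicates of whole worms that form a single group. The animals were young adults at 66 h, grown on from L1 larvae starved after bleaching. Both replicates came from strain RW12174, in which eGFP was inserted by CRISPR at hlh-26 as a fusion, together with an unc-119(+) rescue marker between loxP sites, in an unc-119(tm4063) background. Chromatin was sonicated to pieces of 200 to 800 bp, and the immunoprecipitation is described as anti-GFP, although the antibody field of the labels reads hlh-26. No untagged worms or input were analysed here, so the lists give no background level for either gene other than the remaining peaks. Whole animals were used, so the cells behind a peak cannot be told apart.

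On the WBcel235 assembly (ce11), rpr-1 (WBGene00045238, Y48G10A.7) spans 253 bp on the plus strand of chromosome I, from 13463955 to 13464207. It lies in a 2023 bp intron (13462739 to 13464761) of ints-8, a gene on the opposite strand that encodes a homolog of an Integrator complex subunit, 1216 bp from the exon on one side and 554 bp from the exon on the other. The second gene, mrpr-1 (WBGene00045095, E04F6.16), spans 186 bp on the plus strand of chromosome II, from 7200233 to 7200418, and is intergenic. Its right-hand neighbour pcrg-1, a homolog of the Parkin coregulated gene, starts 131 bp after it on the same strand. Its left-hand neighbour E04F6.6, an uncharacterised protein-coding gene on the minus strand, starts 668 bp before it.

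RNase P is the ribonucleoprotein that removes the 5′ leader from precursor tRNAs, and its RNA is the catalytic part. RNase MRP is a related ribonucleoprotein with a separate RNA and shared proteins, best known from yeast and human cells for cleaving precursor ribosomal RNA. In animals the genes for both RNAs belong to a small class that RNA polymerase III reads from promoters lying wholly upstream of the gene, made of a proximal sequence element and TATA letters, with a run of T as the terminator.

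The 90 bases before mrpr-1 and the like stretch of 3 other RNA genes are shown because they carry some or all of the letters that rpr-1 has as well. Each is read 5′ to 3′ on the strand of its gene and ends at the base before the annotated start (RefSeq genome, WBcel235). Capitals mark an upstream element, written as CGNAACCC, then any 6 bases, then TGTC, and the letters TATATA or TATAAA. 
mrpr-1, chrII:7200143-7200232, plus strand: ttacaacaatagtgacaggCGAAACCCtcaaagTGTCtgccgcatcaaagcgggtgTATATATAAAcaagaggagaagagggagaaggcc
W05B2.8, annotated as snRNA, chrIII:10989589-10989678, plus strand: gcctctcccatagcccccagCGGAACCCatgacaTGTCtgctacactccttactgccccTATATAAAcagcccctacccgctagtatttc
T08B6.62, annotated as snRNA, chrIV:4885650-4885739, minus strand: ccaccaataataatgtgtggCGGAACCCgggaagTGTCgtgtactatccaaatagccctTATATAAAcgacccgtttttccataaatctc
sup-6, annotated as snRNA, chrII:12944968-12945057, minus strand: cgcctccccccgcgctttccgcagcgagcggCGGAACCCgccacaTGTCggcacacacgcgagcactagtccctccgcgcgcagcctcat

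The mrpr-1 gene itself is shown with the 20 bases after it, because its strongest summit lay inside it. Capitals mark the 11 bases centred on that summit and the run of 4 T that crosses the annotated 3′ end. 
mrpr-1 gene, chrII:7200233-7200438, plus strand: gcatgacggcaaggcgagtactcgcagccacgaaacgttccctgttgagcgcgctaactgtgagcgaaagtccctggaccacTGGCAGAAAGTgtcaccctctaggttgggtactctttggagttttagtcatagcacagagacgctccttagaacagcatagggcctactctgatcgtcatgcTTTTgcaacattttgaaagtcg

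The 8 lists were a ranked and a thresholded list for each replicate and 2 pairs of such lists for the series. The conservative pair compares the replicates with each other. A ranked list holds all peaks compared, and a thresholded list holds those with an irreproducible discovery rate (IDR, the estimated share of peaks at least that well ranked that fail to recur in a pair of lists) of about 1.00% or less, which is a score of 830. The ranked lists held 35301 peaks (conservative), 35468 (the other series list), 19393 (replicate 1) and 24293 (replicate 2), and the thresholded lists 90, 75, 21 and 27. The signal is the authors' measure of enrichment, on a scale of its own in each list, and median signals were 25.96, 25.81, 19.3 and 15.8. Peak lists hold no reads, so the depth behind each value is unknown.

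Both genes had a peak in the conservative thresholded list, where 181 of 46890 nuclear genes (0.386%) had one within 1000 bp. This percentage describes the list, since the genes were chosen for their peaks. Over the 8 lists, 17 ranked and 8 thresholded peaks lay within 1000 bp of either gene, and the summit was inside the gene in 8 and 5 of them. At rpr-1 there were 2, 2, 1 and 2 ranked peaks in the conservative, other, replicate 1 and replicate 2 lists, and at mrpr-1 there were 3, 2, 3 and 2. Of these, 1, 2, 1 and 1 at rpr-1 and 1, 1, 0 and 1 at mrpr-1 were thresholded. A ranked peak alone was common, since 47.6% of nuclear genes had one within 1000 bp in the conservative list, 47.1% in the other, 35.2% in replicate 1 and 40.4% in replicate 2.

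**Figure D1:**
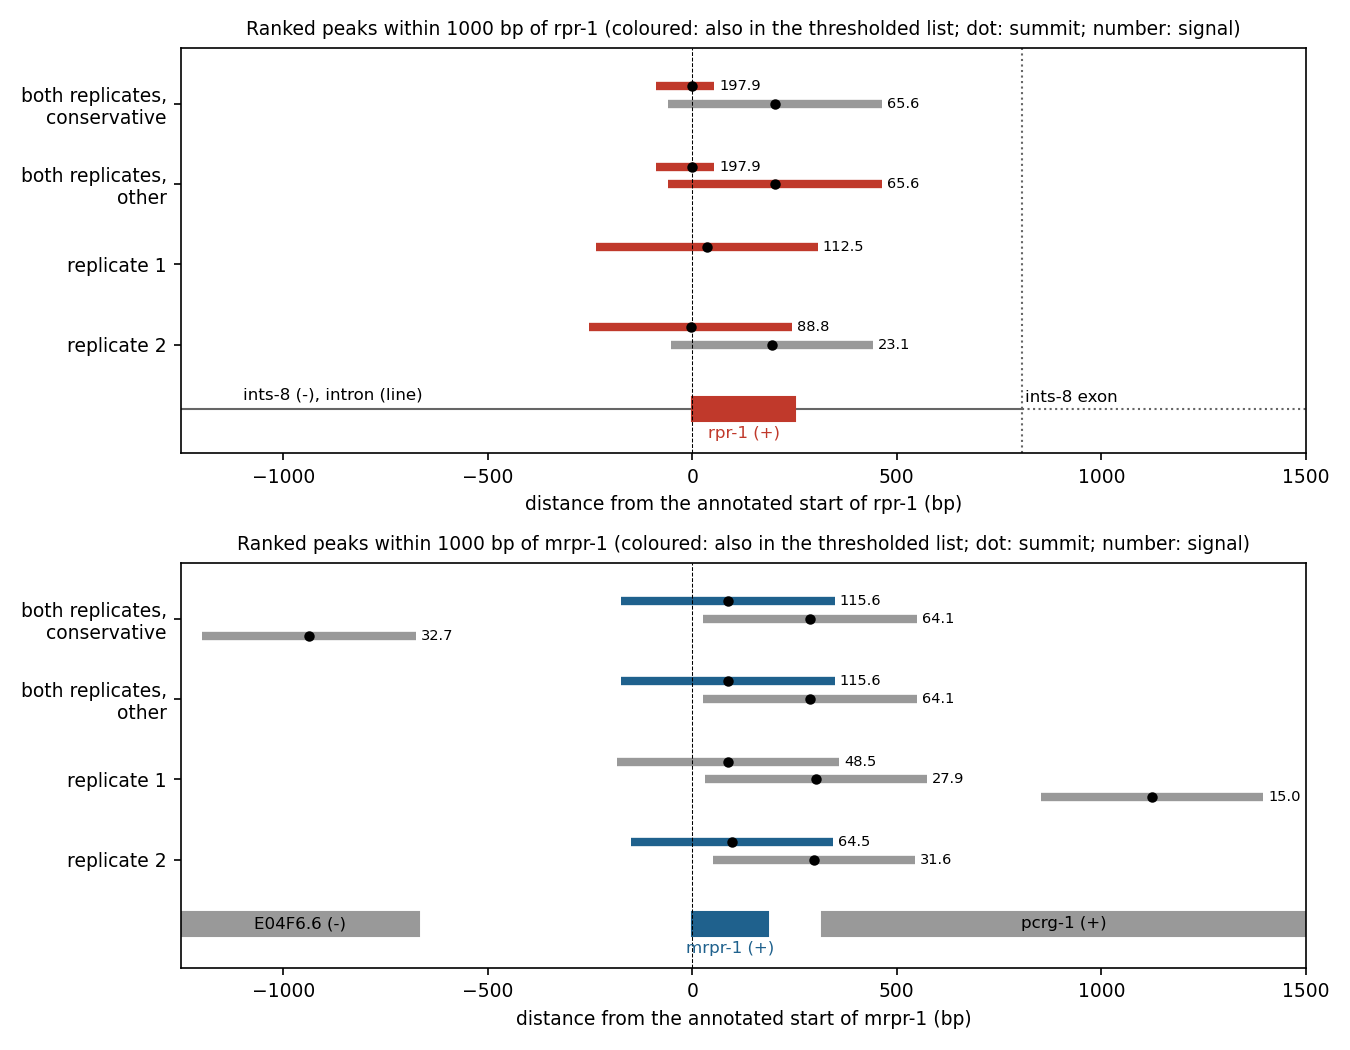
Ranked peaks within 1000 bp of rpr-1 (top) and mrpr-1 (bottom) in 4 lists, against the distance from the annotated gene start in bp. Bars are peaks, dots are summits, numbers are signals, coloured bars are also in the thresholded list and boxes are genes. The strongest summits at rpr-1 sit within 36 bp of its start, and those at mrpr-1 between 87 and 97 bp inside the gene.

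The strongest peak at rpr-1 lay over its start. In the conservative list it ran from 13463867 to 13464009, with the summit at 13463953, 2 bp before the gene. Its signal was 198, rank 14 of all peaks and rank 3 of the nuclear ones, and its IDR was 0.0227%. The peak was 143 bp wide, whereas 35297 of the 35301 peaks were 524 bp wide, and it was the narrowest of the 4 that were not. Those 4 were the 4 strongest nuclear peaks. The other series list held the same peak, with an IDR of 0.0441%. In that list 0.32% of nuclear genes had a thresholded peak within 1000 bp, and at a looser score of 540 the conservative list gave 1.23%.

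Each replicate alone had this peak too. In replicate 1 it ran from 13463719 to 13464262, with its summit 36 bp inside the gene, a signal of 112 and an IDR of 0.238%. In replicate 2 it ran from 13463703 to 13464198, with its summit 4 bp before the gene, a signal of 88.8 and an IDR of 0.118%. It was thresholded in both and ranked 3 among the nuclear peaks of both, at rank 13 and rank 14 of all peaks. The summits were 40 bp apart and the peaks shared 480 bp. Relative to the median of its list the signal was 5.83-fold in replicate 1, 5.62-fold in replicate 2 and 7.62-fold in the conservative list. These folds are descriptions of 2 replicates. Of nuclear genes, 0.0512% had a thresholded peak within 1000 bp in replicate 1 and 0.081% in replicate 2.

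A second, weaker peak lay over the 3′ part of rpr-1. It ran from 13463895 to 13464418 in the conservative list, with its summit 202 bp into the gene, 204 bp from the first summit. Its signal was 65.6, at rank 450. It passed the threshold in the other series list (IDR 0.184%) and not in the conservative one (IDR 8.6%), where the pair of peaks compared had signals of 112 and 23.1. The first of these is the replicate 1 peak that also stands for the stronger summit, since replicate 1 had no second peak at the gene. In replicate 2 the second peak had a signal of 23.1, at rank 4032, and an IDR of 93.5%. The second summit thus came from 1 of the replicates when each was taken alone.

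The strongest peak at mrpr-1 lay over the gene body. In the conservative list it ran from 7200058 to 7200581, with its summit at 7200320, 87 bp inside the gene and in the stretch in capitals in the gene sequence. Its signal was 116, rank 22 of all peaks and rank 10 of the nuclear ones, and its IDR was 0.107%. The other series list held it with an IDR of 0.145%. The signal at rpr-1 was 1.71 times that at mrpr-1 in both series lists.

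The replicates differed more at mrpr-1 than at rpr-1 in rank and less in summit. Replicate 1 had the peak from 7200049 to 7200592 with a signal of 48.5, rank 113 of all peaks, and an IDR of 18.4%, outside the threshold. Replicate 2 had it from 7200082 to 7200577 with a signal of 64.5, rank 19, and an IDR of 0.49%, inside the threshold. The summits were 88 and 97 bp into the gene, 9 bp apart, and the replicate 2 peak lay wholly within the other, over 496 bp. Against the median of its list the signal was 2.51-fold in replicate 1 and 4.08-fold in replicate 2. The signal at rpr-1 was 2.32 times that at mrpr-1 in replicate 1 and 1.38 times in replicate 2, so the order was the same in both and the size was not. With 2 replicates these differences were not tested.

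Each replicate's ranked list in turn compares 2 further lists, which the sources used here do not name. At rpr-1 those lists gave signals of 57.8 and 56.2 in replicate 1 and 46.3 and 45.2 in replicate 2, a ratio of 1.03 in both. At mrpr-1 they gave 25.2 and 21.3 in replicate 1, a ratio of 1.18, and 24.7 and 40.9 in replicate 2, a ratio of 0.604. The mrpr-1 summits of the compared lists were 95 bp apart in replicate 1 and 154 bp in replicate 2, and the rpr-1 summits 8 and 59 bp. The mrpr-1 values compare unlike peaks, because 1 peak of the first compared list, with its summit 132 bp into the gene in replicate 1 and 240 bp in replicate 2, stood for both the stronger and the second mrpr-1 peak.

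**Figure D2:**
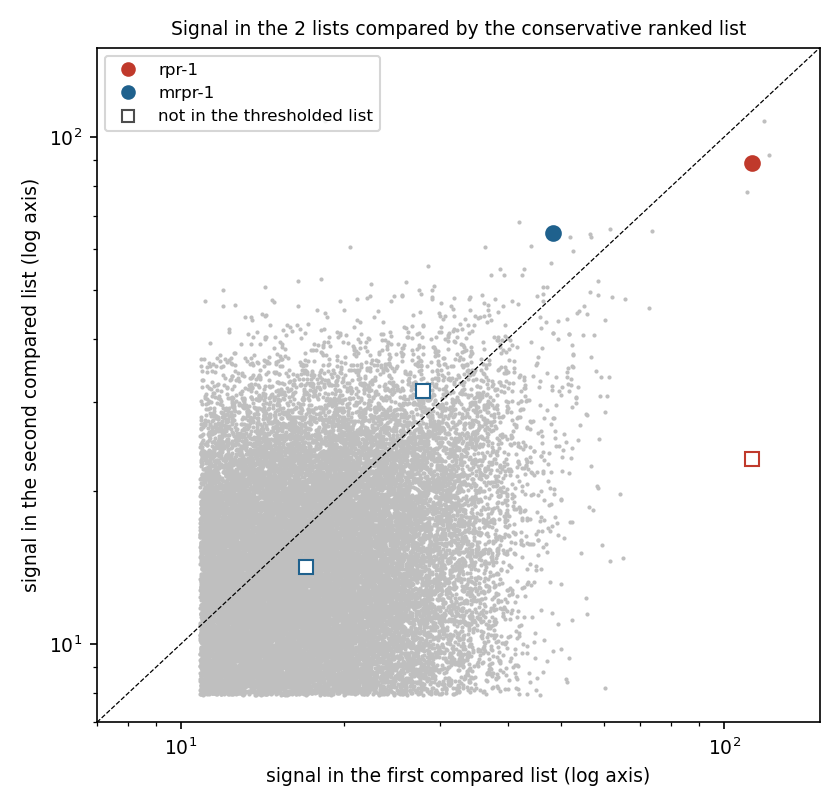
Signal of each nuclear peak of the conservative ranked list in the first (x axis) and second (y axis) of the lists compared, both on log axes, with the line of equal signal. Filled circles are thresholded peaks at rpr-1 (112 and 88.8) and mrpr-1 (48.5 and 64.5), open squares are their other ranked peaks, and grey points are all nuclear peaks.

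A second peak beside mrpr-1 lay nearer to pcrg-1. In the conservative list it ran from 7200259 to 7200782, with its summit 103 bp after the end of mrpr-1 and 28 bp before the start of pcrg-1. Its signal was 64.1, at rank 513, with an IDR of 14.7%. Replicate 1 had it with a signal of 27.9 and an IDR of 37.9%, and replicate 2 with a signal of 31.6 and an IDR of 46.6%. It was in none of the thresholded lists. Its summit was 201 bp from that of the stronger peak, and both peaks shared 323 bp.

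The remaining peaks were weak and each was in only 1 of the ranked lists. One in E04F6.6 lay 676 bp from mrpr-1 in the conservative list, with a signal of 32.7 at rank 10847. The peaks compared there, from both replicates, had signals of 16.96 and 14.16 and summits 4 bp apart. One in pcrg-1 lay 668 bp away in replicate 1, with a signal of 14.96 at rank 14499. These were the members of the 1000 bp window nearest its edge, and the next peak outside it in the conservative list was 2223 bp away, with a signal of 11.1 at rank 34230.

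**Figure D3:**
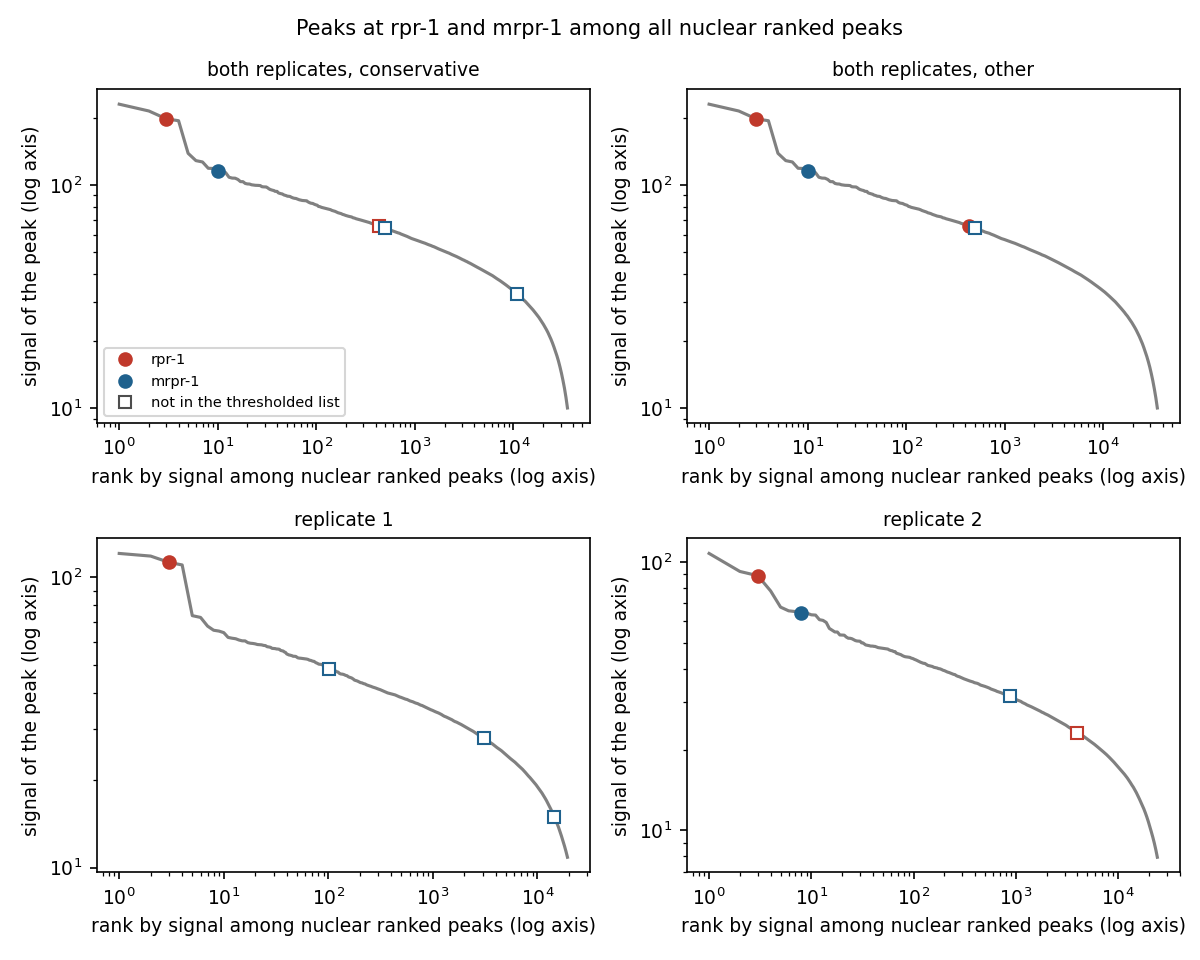
Signal against rank among nuclear ranked peaks, both on log axes, in the 4 ranked lists. Grey lines are all nuclear peaks, filled circles are thresholded peaks at rpr-1 or mrpr-1 and open squares are their peaks outside the threshold. The rpr-1 peak stands at rank 3 in every list, and the mrpr-1 peak at 10, 10, 101 and 8.

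The host and neighbouring genes had few peaks beyond those within 1000 bp of rpr-1 or mrpr-1. The body of ints-8 held 2 ranked peaks in the conservative list, both at rpr-1, and none lay within 1000 bp of its start. Y48G10A.6, the gene with the nearest start on the left of rpr-1, had none. The body of pcrg-1 overlapped 2 ranked peaks, both those at mrpr-1, of which the stronger was thresholded. E04F6.6 overlapped 3, with signals of 32.7, 22.0 and 11.1, none thresholded.

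In rank by signal among the nuclear peaks, rpr-1 stood between the snoRNA genes ZK994.7 (signal 215) and T03F7.8 (signal 194). The step to the next peak, at the snoRNA gene W03C9.9 (signal 139), was larger than the steps among the first 4. The mrpr-1 peak stood between the tRNA gene C04A11.t1 (signal 118.6) and the snoRNA gene Y23H5B.10 (signal 115.5), and differed from the latter by less than 1 unit of signal. By the best peak within 1000 bp, 8 nuclear genes exceeded rpr-1, of which 3 were protein-coding genes, 3 snoRNA genes and 1 a tRNA gene. For mrpr-1 the number was 27, rpr-1 included, of which 15 were protein-coding, 7 snoRNA and 2 tRNA genes. No snRNA gene exceeded either. Genes that share a peak are counted separately.

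The share of genes with a thresholded peak within 1000 bp differed among annotated classes of RNA gene. It was 21 of 346 snoRNA genes (6.07%, exact Clopper-Pearson 95% interval 3.8 to 9.13%), 15 of 612 tRNA genes (2.45%, 1.38 to 4.01%) and 3 of 129 snRNA genes (2.33%, 0.482 to 6.65%). It was 2 of 261 miRNA genes (0.766%, 0.0929 to 2.74%), an interval that takes in the 0.386% of all nuclear genes, and 4 of 15363 piRNA genes (0.026%, 0.00709 to 0.0667%), which lies under it. For protein-coding genes it was 98 of 19973 (0.491%, 0.399 to 0.598%). The annotation class of rpr-1 and mrpr-1, unclassified ncRNA genes, held 31 of 7521 at up to 350 bp in length (0.412%, 0.28 to 0.585%), close to the 0.386% of all nuclear genes. The 31 include rpr-1 and mrpr-1 themselves, which were chosen for their peaks. In the lists of the single replicates 0 of the 129 snRNA genes had a thresholded peak, and the tRNA and snoRNA shares were at most 0.98% and 1.73%. Over all nuclear genes those lists gave 0.0512% (replicate 1) and 0.081% (replicate 2), so 0 of 129 is no result about snRNA genes. The intervals cover counting error over genes only, and neighbouring genes that share a peak are not independent.

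**Figure D4:**
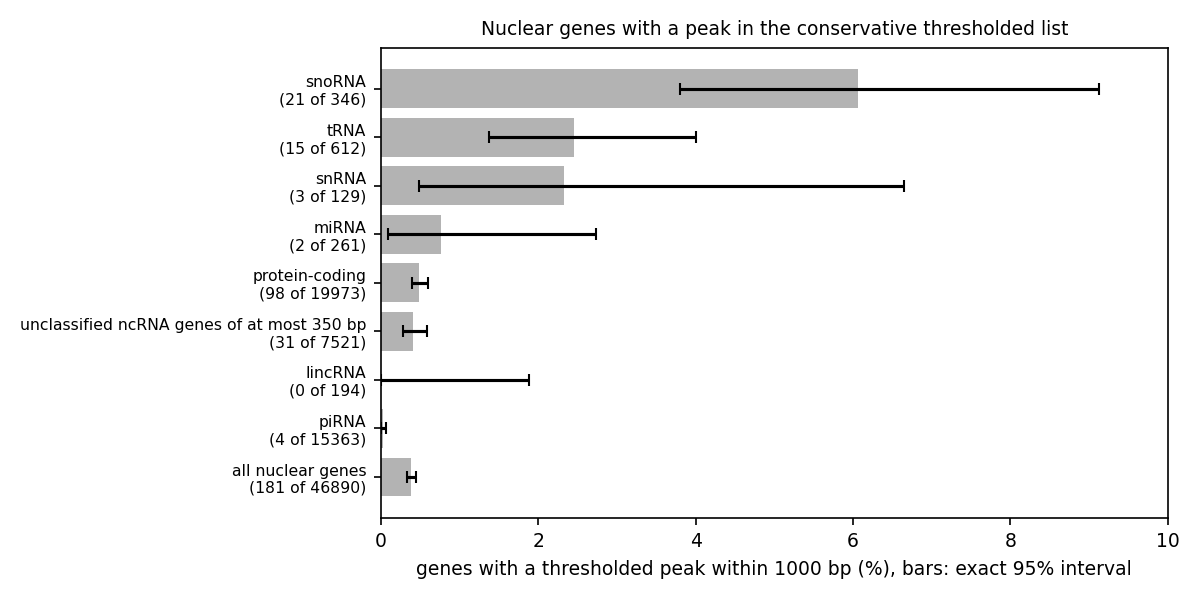
Percent of nuclear genes of each annotated class with a peak of the conservative thresholded list within 1000 bp. Bars start at 0 and lines are exact 95% intervals. The snoRNA share, 6.07%, is the highest, and the class that holds rpr-1 and mrpr-1, with both counted in it, is at 0.412%.

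Peaks at the genes for the protein subunits were counted in the same way. Of 6 genes whose annotated product names RNase P or RNase MRP (popl-1, popl-4, popl-5, H35B03.2, Y37E11AM.4 and Y62E10A.24), 0 had a thresholded peak within 1000 bp, and a count of 0 among so few genes still allows a share as high as 50% (3 counts). At the 0.386% of all nuclear genes, a count of 0 in 6 is no result about these genes. Y37E11AM.4 had a ranked peak, with a signal of 21.1 at rank 23242, below the list median. The other 5 had no ranked peak, which 47.6% of nuclear genes and 68.3% of protein-coding genes had. The tagged gene hlh-26 had no ranked peak within 1000 bp, and unc-119 had 2, the stronger with a signal of 18.1.

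The upstream letters were found by lining up the sequence before both genes, so their presence in both is no result. The element lay from 69 to 52 bases before rpr-1 and from 71 to 54 bases before mrpr-1, and 13 of its 18 bases were the same, 11 of them set by the letters searched. TATATA began 30 bases before rpr-1 and 34 bases before mrpr-1, leaving 21 and 19 bases between the element and it. Both genes also had TTTT at the annotated 3′ end, as did 7974 of the 46890 nuclear genes. The rpr-1 summit lay 28 bases past the first TATA letter and the mrpr-1 summit 121 bases past it. These are summits of the conservative list, and the mrpr-1 summits in the lists compared within the replicates ran from 37 to 240 bp into the gene.

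Searched on the strand of the gene, the element was present within 100 bases before 75 of 46890 nuclear genes (0.16%), and TATATA or TATAAA within 50 bases before 4072 (8.68%). By class the element lay before 32 of 129 snRNA genes (24.8%), 24 of 346 snoRNA genes (6.94%), 3 of 19973 protein-coding genes and 0 of 612 tRNA genes. Both sets of letters were present before 8 genes, which are rpr-1, mrpr-1, 5 snRNA genes and the snoRNA gene W05B2.9. The letters came from rpr-1 and mrpr-1, which were chosen for their peaks, so only the other 6 genes add to the count. Of these 6, 1 had a thresholded peak, W05B2.8. The share was 0.386% over all nuclear genes, 2.33% over snRNA genes and 6.07% over snoRNA genes, the classes of the 6. A count of 1 gene in 6 is no result about the letters.

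The snRNA gene W05B2.8, whose upstream sequence is shown with that of mrpr-1, was that gene. It sits in an intron of dhc-4 on chromosome III, from 10989679 to 10989780, with its element 70 bases and its TATA letters 31 bases before the start. In the conservative list it had 3 ranked peaks within 1000 bp, of which 2 were thresholded. The strongest had a signal of 108 (nuclear rank 13, IDR 0.0657%), with the summit 18 bp into the gene. The best signal was 65.7 in replicate 1 (IDR 13.9%) and 47.8 in replicate 2 (IDR 76.4%). Both peaks were outside the threshold, with one summit before the gene start and the other past the gene end. By best peak, mrpr-1 ranked higher in replicate 2 and W05B2.8 in replicate 1. The W05B2.8 values compare unlike peaks, because replicate 1 had 3 ranked peaks there and replicate 2 had 1. In the conservative list the replicate 2 signal of 47.8 was compared with 65.7 and also with 37.9. The ranks therefore do not set an order of the replicates at W05B2.8.

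The other genes with both sets of letters had weaker peaks. T08B6.62, with letters at the same distances as W05B2.8, had a signal of 54.9 in the conservative list at rank 1274, 25.6 in replicate 1 and 26.4 in replicate 2, with no thresholded peak. Y17G9A.85, F54D8.7 and Y17G9A.90 had best signals of 30.1, 24.2 and 12.9, and W05B2.9 had no ranked peak in the conservative list. Of the 6 genes, 5 thus had no thresholded peak. Most genes had none, since 0.386% of all nuclear genes and 2.33% of snRNA genes had one. So 5 of 6 without a peak is no result about the letters. The gene sup-6 had the element without TATA letters and a thresholded peak in the conservative list, with a signal of 107, nuclear rank 14. Its summit lay 171 bp from the start of this 165 bp gene, past the 3′ end and away from the element, in F58G1.7. In the replicates the signals were 56.6 (IDR 15.5%) and 49.4 (IDR 64.5%), outside the threshold in both. Of the 67 nuclear genes with the element and no TATA letters, 2 had a thresholded peak, sup-6 and ZK994.7. The share was 0.386% over all nuclear genes, 2.33% over snRNA genes and 6.07% over snoRNA genes. Since many of the 67 are snRNA or snoRNA genes, 2 of 67 is no result about the element.

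Within 50 bp of the summit, 8 sets of letters were searched on both strands. The bHLH letters were the E-box CACGTG and, as related hexamers, CATGTG with CAGCTG, then CACGCG with CATGCG, and the N-box CACNAG. The others were TATAAA and TATATA. At rpr-1 only TATATA was found, 28 bases before the summit, which 2.5% of the 35284 nuclear ranked peaks also hold. At mrpr-1 none was found. The other shares among ranked peaks ran from 1.92% for CACGCG to 13.2% for CACNAG, and no match says only that these letters are not in this window. The 50 bp on either side of the summit were 60.4% G or C at rpr-1 and 51.5% at mrpr-1, against a median of 41.6% and a 90th percentile of 52.5% over nuclear ranked peaks.

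No 50-base word of either gene or of its strongest peak occurred a second time in the genome on either strand (204 and 137 words of rpr-1 and mrpr-1, 94 and 475 of their peaks).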

How the data were processed

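The authors deposited 8 peak lists on the ce11 build, 2 for each of 2 replicates and 4 for the series, per the labels. Each peak carries the authors' signal, a score and the −log10 of a q-value, and the ranked lists also carry the −log10 of the IDR as deposited. Signal was compared within a list, except for the 2 lists that a ranked list compares. Signals of those were given as ratios or plotted against each other, with no allowance for the scale of each list. The deposited score was within 1 unit of the rescaled IDR at every ranked peak. Names and versions of the caller and of the IDR program were not stated in the labels or files read here. The labels name a possible control experiment, which was not analysed here, and do not say which control the peak calls used. Peaks within 1000 bp of a gene were counted, with genes from Ensembl release 115 and sequence and products from RefSeq, both for WBcel235. Scripts used Python 3.11.15, numpy 2.4.6, pandas 2.3.3, scipy 1.17.1 and matplotlib 3.10.9, and the search functions were checked on simulated data. No p-value was computed, as the design has 1 group and the genes and lists were chosen with earlier results of these data known. The genes named are both RNA genes, their host and neighbours, the annotated protein subunits, hlh-26, unc-119, RNA genes next in rank, and RNA genes with a thresholded peak. The upstream letters, and the genes named for them, were chosen after values were seen. Per-sample columns of other samples numbered 0.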

Additional observations from a re-analysis of the deposited data

How the results depend on the processing

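No paired analysis was possible because the design has 1 group and no result came from a test. The number of thresholded peaks at rpr-1 was 1 and became 2 in the other series list, and with 1 replicate left out it stayed from 1 to 1. At mrpr-1 it was 1 and ran from 0 to 1 with 1 replicate left out, 0 being replicate 1 alone. The rank by signal of rpr-1, 14 in the conservative list, was 3 among nuclear peaks, 1 by score and from 13 to 14 in single replicates. That of mrpr-1, 22, was 10 among nuclear peaks, 1 by score and from 19 to 113 in single replicates. The rank of 1 by score is a tie of peaks at the highest score, 1000, which both genes share. The share of nuclear genes with a thresholded peak, 0.386%, was 0.279% for peaks overlapping the gene, 0.305% within 200 bp, 0.512% within 2000 bp, 1.23% at a score of 540 or more (IDR 5.01%), 0.32% in the other series list and 0.0512 to 0.081% in single replicates. At a score of 540 the tRNA share was 7.03% and the snoRNA share 9.83%. In single replicates the tRNA share was 0.163 to 0.98%, the snoRNA share 1.45 to 1.73% and the snRNA share 0.0 to 0.0%. Of 8 sets of letters, 0 were found at rpr-1 within 25 bp of the summit and 1, CATGCG, at mrpr-1 within 100 bp. That match lay 88 bases from the summit, and 4.1% of nuclear ranked peaks hold CATGCG within 100 bp. Alternatives for the upstream letters and the protein subunits were chosen after seeing the data. With 1 letter of the element allowed to differ, 14 genes had both sets of letters, rpr-1 and mrpr-1 included. The 3 with a thresholded peak were again rpr-1, mrpr-1 and W05B2.8. The first 2 gave the letters and were chosen for their peaks, so only W05B2.8 adds to the count. The share was 0.386% over all nuclear genes and 2.33% over snRNA genes, so this is no result about the letters. The cause of these shifts was not tested. Of the alternative values, 49 stayed within 1.5 times for counts, within the exact 95% interval for shares, and within 1 SD of the replicates for ranks. Some of these 49 are among the values given above. For the rank of mrpr-1, 22, that SD was 66.5 and came from 2 replicates, so it sets almost no limit. Those limits are wide, as the snRNA share at a score of 540 was 4.65% against 2.33%, and the tRNA share in the other series list 1.47% against 2.45%. With no reads in the lists, what depth limits is unknown.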

Other observations

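None of 22 other RNA genes (yrn-1, 5 srpr genes and 16 rrn-4 genes, which encode 5S rRNA) had a thresholded peak within 1000 bp in the conservative list, where 0.386% of nuclear genes had one. A ranked peak was present at 9 of the 22, against 47.6% of nuclear genes, and at 3 of the 16 rrn-4 genes. Of those, rrn-4.2 and rrn-4.3 shared 1 peak, 560 and 759 bp away, with a signal of 17.9. Most rrn-4 genes lie close together on chromosome V. Their sequence was not searched for copies, so whether reads could be placed there is unknown. Genes are named here after their values were seen. The gene yrn-1, annotated as a small cytoplasmic RNA (IV, 7499508 to 7499612), had a best signal of 27.0 at rank 16449. Of the 5 srpr genes, whose product RefSeq leaves unclassified, srpr-2.2 had the highest signal, 81.6 at rank 112 with a score of 712, short of 830. The other 4 had best signals of 57.5 (srpr-3), 49.0 (srpr-1.2), 45.6 (srpr-1.1) and 41.4 (srpr-2.1).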
